A study of Mus musculus with 8 samples.

Results

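Ribosome biogenesis factors are the nuclear proteins that transcribe, cut, modify and fold ribosomal RNA and load it with ribosomal proteins, and 44 of them are described here in the lung of mouse embryos at E14.5. The members were chosen by name, and each was measured through the array spots annotated to its symbol, of which the brightest was used. All 44 were found among the 24583 genes of the array. They cover RNA polymerase I (3 genes), the box C/D small nucleolar ribonucleoproteins or snoRNPs (3), the box H/ACA snoRNPs (4), the small subunit processome (15), the assembly of the large subunit (15) and general nucleolar scaffolds and chaperones (4). The study induced a soluble Fgfr2b with doxycycline and asked how the embryonic lung responds after 9 h. Arrays titled experimental stand for embryos with Rosa26 rtTA/rtTA together with the transgene Tg(tet(o)sFgfr2b)/+, and arrays titled control for littermates that had Rosa26 rtTA/rtTA and no transgene (+/+), with 4 arrays in each group, numbered 1 to 4 in the titles. Both groups therefore carried the transactivator, and the mothers of both received 0.0015 mg of doxycycline per g of body weight in a single intraperitoneal injection. The transactivator is driven from the Rosa26 locus, which is active in most cell types, so that the source of the soluble receptor was not limited to the epithelium or the mesenchyme, and the RNA came from the whole left lobe.

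Ribosome production starts in the nucleolus, where RNA polymerase I transcribes a long precursor of the ribosomal RNAs. Box C/D snoRNPs methylate this precursor and box H/ACA snoRNPs convert selected uridines to pseudouridine, while the U3 snoRNP and the small subunit processome fold and cleave the part that becomes the small subunit. A separate set of factors matures the large subunit, and chaperones and helicases of the nucleolus serve several of these steps. Growing and dividing tissues, such as the branching embryonic lung, express these genes at a high level, and the transcription factor Myc is a well-known activator of many of them.

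Before the members are described, the labels need a remark. In the order of the title numbers 1 to 4, which is kept for all values below, the log2 signal of Etv5, a transcription factor that Fgf signaling induces at the epithelial tips, was 10.42, 10.43, 13.11 and 13.26 under the experimental label against 10.09, 10.57, 13.18 and 13.26 under the control label. Etv4, its close relative, had 6.92, 7.49, 9.39 and 9.34 under the experimental label against 7.61, 7.97, 9.37 and 9.38 under the control label. Both therefore followed the title number and not the titled group, so that the word label is used for the titled group, and the members are described both by label and by number. Whether the titles of some arrays were exchanged could not be settled from the labels. For this reason neither the comparison by label nor that by number is read here as the response to the soluble receptor, and each is given only as a difference between arrays so titled. The mean of the 4 arrays numbered 3 and 4 minus that of the 4 arrays numbered 1 and 2 is called the number difference. It was 2.83 for Etv5, 1.87 for Etv4, 1.98 for the distal epithelial gene Sox9 and −0.58 for the mesenchymal gene Fgf10. Between the labels Etv5 differed by 0.03 and Etv4 by −0.30. For all of the genes with a number difference given above, the study reports a change in its experimental lungs. In size these changes equal the number differences to every digit that the study prints, with Fgf10 higher and the others lower. In both labelled groups that direction was the one of the arrays numbered 1 and 2. Ribosome biogenesis is among the pathways that the study lists as most regulated. The split by number was proposed with the values of these arrays in view, and it is given as a description with no test. Xist, the transcript of the inactive X chromosome in female cells, was low in numbers 1 and 3 (2.98 to 3.63) and high in numbers 2 and 4 (7.45 to 8.21), so the split by number held a pair of low and a pair of high Xist arrays on either side. Across all genes the arrays correlated at r = 0.986 to 0.992. Control 1 stood apart in airway and squamous epithelial genes, with a list mean of 8.69 against 6.91 to 7.21 in the other 7 arrays. The main count over the members is also given without control 1, and the other counts include it. Epithelial (list mean 9.91 to 10.31), mesenchymal (11.39 to 11.73) and endothelial (10.14 to 10.38) markers were present in every array. On this scale the lowest signal of any spot was 2.00 and the highest lay just under 16, and the median gene lay at 5.79.

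The ribosome biogenesis factors were higher in the arrays numbered 3 and 4 than in those numbered 1 and 2, in both labelled groups, and their median difference between the labels was near 0. Their mean log2 signal was 9.91, 9.91, 10.27 and 10.35 under the experimental label against 9.92, 10.05, 10.27 and 10.33 under the control label. The arrays numbered 3 and 4 lay above all arrays numbered 1 and 2, with 10.30 ± 0.04 in numbers 3 and 4 and 9.95 ± 0.07 in numbers 1 and 2 (SD, n = 4), a number difference of 0.36. Between the labels the means were 10.11 ± 0.23 in experimental and 10.14 ± 0.19 in control (SD, n = 4). Of the 44 members 42 were higher in numbers 3 and 4 in sign, against 50.2% of all genes, and 28 (63.6%) were higher in every array numbered 3 and 4 than in every array numbered 1 and 2, where 5.39% of all genes met the same condition. No member was lower in every array numbered 3 and 4, against 5.17% of all genes. Because 43 of the 44 members lay above the median level, where arrays are less noisy, the share among the 12291 genes above that level is the closer background, and it was 8.88% for higher and 8.45% for lower genes. The median difference over the members was 0.35 (range −0.05 to 0.77) and over all genes 0.00. Without control 1 the count was 32 of 44, against 7.24% of all genes.

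**Figure D1:**
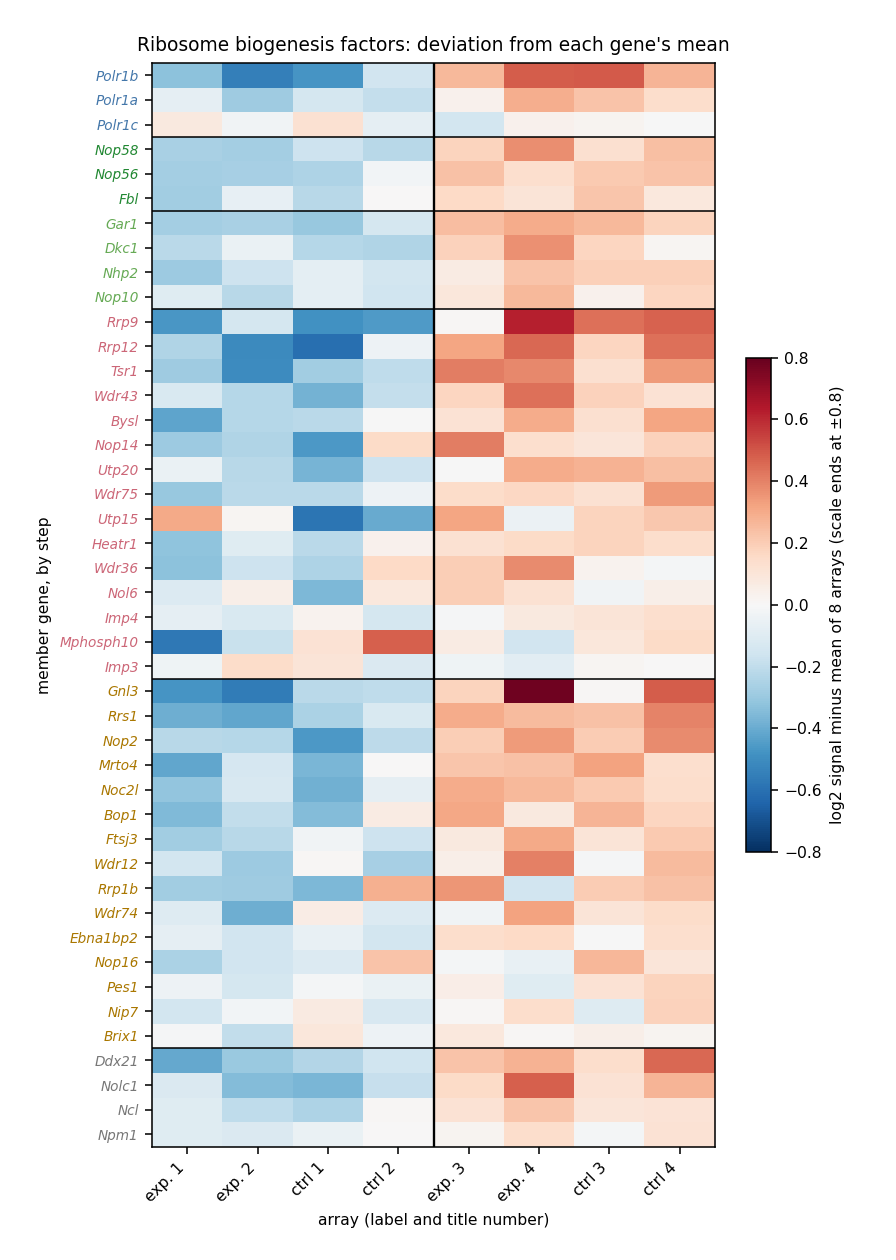
Log2 signal of each of the 44 members in each of the 8 arrays, as the deviation from the mean of that gene over the arrays (blue below, red above, colour scale ending at 0.8 in either direction). Rows are grouped from top to bottom into RNA polymerase I, box C/D snoRNP, box H/ACA snoRNP, small subunit processome, large subunit assembly, and nucleolar scaffold and chaperone. The 4 columns on the left are numbers 1 and 2 and the 4 on the right numbers 3 and 4, and 42 of the 44 rows are on average redder on the right.

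The number difference was positive for most members within each label alone. In the arrays labelled experimental, 40 of the 44 members were higher in both arrays numbered 3 and 4 than in both numbered 1 and 2 (21.1% of all genes), and in the arrays labelled control 32 of 44 were (18.9% of all genes). A total of 30 members met the condition in both labelled groups, against 7.14% of all genes, and 40 had a positive difference in both. The highest array of a member was numbered 4 for 27 members and 3 for 13, and the lowest was numbered 1 for 27 and 2 for 16. Control 2 was the highest of the arrays numbered 1 and 2 for the member mean (10.05 against 9.91 to 9.92).

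**Figure D2:**
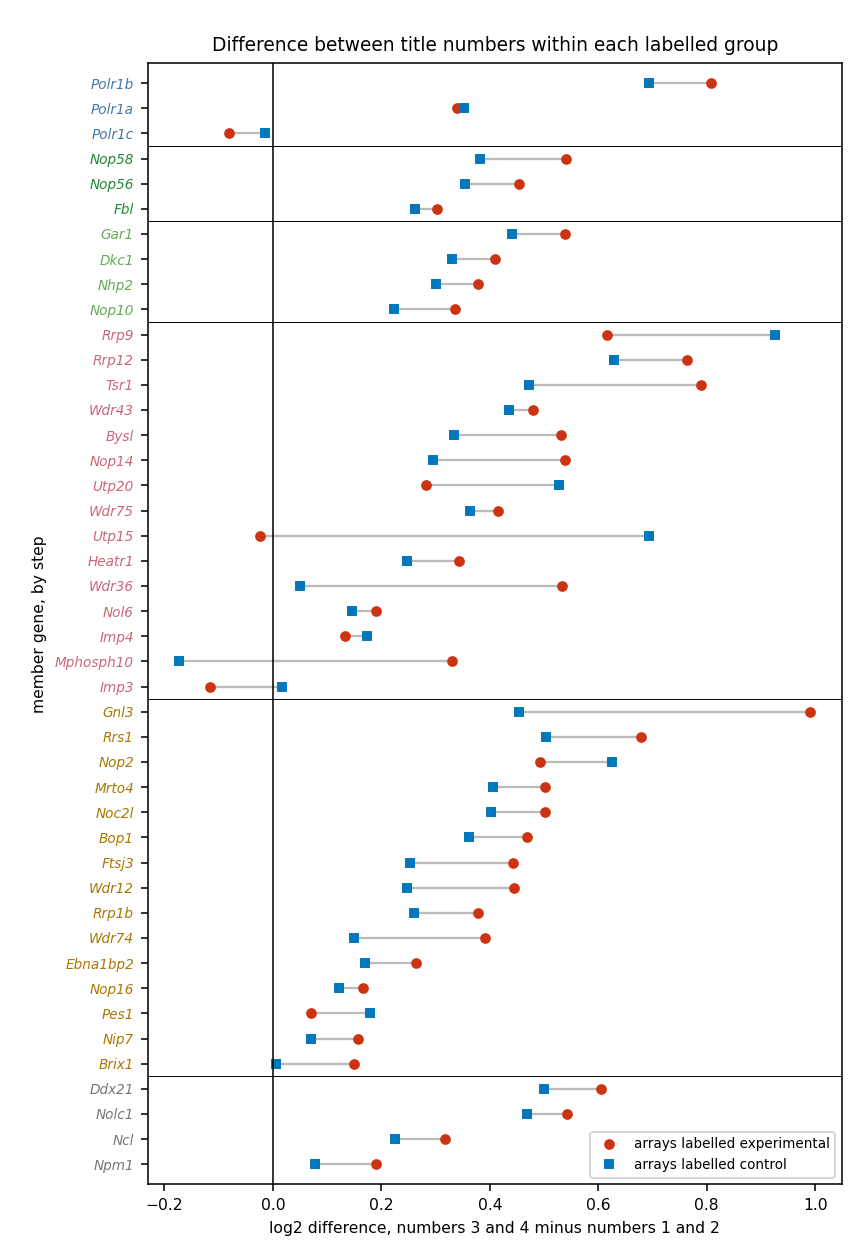
Log2 difference between the mean of numbers 3 and 4 and the mean of numbers 1 and 2 for each member, taken within the arrays labelled experimental (circles, 2 against 2 arrays) and within those labelled control (squares, 2 against 2 arrays), with the members grouped by step. Both symbols lie right of 0 for 40 of the 44 members, and Utp15, Wdr36, Mphosph10 and Gnl3 have the widest gaps between the symbols.

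Within RNA polymerase I, the enzyme of ribosomal RNA synthesis, the core subunits Polr1a and Polr1b were higher in every array numbered 3 and 4 and the arrays of the shared subunit Polr1c overlapped. Polr1b, a core subunit found only in this polymerase, had a log2 signal of 7.83, 7.61, 8.42 and 8.64 under the experimental label against 7.69, 8.01, 8.65 and 8.44 under the control label. Its groups did not overlap by number, with 8.54 ± 0.13 in numbers 3 and 4 and 7.79 ± 0.17 in numbers 1 and 2 (SD, n = 4), a number difference of 0.75. Polr1a, the largest and catalytic subunit, was at 9.68, 9.47, 9.79 and 10.05 under the experimental label against 9.62, 9.57, 9.99 and 9.90 under the control label, which gave a difference of 0.35 with no overlap. This held for its brightest spot, as on a further spot of Polr1a, at a mean of 7.16, the arrays overlapped (difference 0.15). The subunit Polr1c, which RNA polymerase III also uses, lay at 11.43, 11.32, 11.20 and 11.38 under the experimental label against 11.47, 11.27, 11.37 and 11.35 under the control label. Its arrays overlapped between the numbers (difference −0.05), and its other spot gave −0.01 at a mean signal of 9.93.

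On the brightest spots, every measured snoRNP protein was higher in each array numbered 3 and 4 than in each numbered 1 and 2. This held for 3 of 3 in the box C/D and 4 of 4 in the box H/ACA particles. The further spots of Nop58, of which the brightest had a mean of 11.18, and of Dkc1 overlapped between the numbers. Those of Nop56 and Gar1 did not. Fbl (fibrillarin), the methyltransferase of the box C/D particle, had 13.10, 13.31, 13.53 and 13.48 under the experimental label against 13.15, 13.38, 13.59 and 13.46 under the control label, and Nop56, a core protein of that particle, had 12.16, 12.17, 12.67 and 12.57 under the experimental label against 12.19, 12.42, 12.65 and 12.67 under the control label. Nop58, the partner of Nop56, was at 11.17, 11.16, 11.61 and 11.81 under the experimental label against 11.27, 11.21, 11.56 and 11.68 under the control label. The number difference was 0.28 for Fbl, 0.40 for Nop56 and 0.46 for Nop58. On the brightest spot of each of the 3 genes the groups by number were apart. Among the box H/ACA proteins, which also form part of telomerase, Gar1 had the largest number difference, from 11.94 ± 0.07 in numbers 1 and 2 to 12.43 ± 0.05 in numbers 3 and 4 (SD, n = 4). The array values of Gar1 were 11.92, 11.93, 12.44 and 12.48 under the experimental label against 11.88, 12.05, 12.45 and 12.36 under the control label. Dkc1 (dyskerin), the pseudouridine synthase itself, had 8.63, 8.79, 9.03 and 9.20 under the experimental label against 8.61, 8.60, 9.01 and 8.86 under the control label. With 0.14 between the labels, Dkc1 was also the only member that was higher in the array labelled experimental within all 4 numbers. This held for its brightest spot alone, as the other spot of Dkc1, at a mean of 7.60, was lower under the experimental label within all 4 numbers. Nhp2, a core protein that contacts the guide RNA, was at 12.35, 12.48, 12.71 and 12.88 under the experimental label against 12.57, 12.50, 12.83 and 12.84 under the control label. Nhp2 and the small core protein Nop10 differed by 0.34 and 0.28 between the numbers.

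The small subunit processome had the widest range. Of its 15 members 8 were higher in every array numbered 3 and 4, 14 were higher in sign, and the median difference was 0.39. Rrp9, the protein specific to the U3 snoRNP, had the largest number difference of all 44 members. Its log2 signal was 7.45, 7.77, 7.92 and 8.53 under the experimental label against 7.43, 7.46, 8.36 and 8.39 under the control label, which gave 8.30 ± 0.26 in numbers 3 and 4 and 7.53 ± 0.16 in numbers 1 and 2 (SD, n = 4) and a difference of 0.77, or a fold of 1.71. Rrp12, known in yeast as an export factor of the precursor subunits, followed with a difference of 0.70 and array values of 9.31, 9.04, 9.87 and 10.01 under the experimental label against 8.95, 9.51, 9.72 and 9.99 under the control label. Tsr1, which in yeast acts late on the small subunit precursor, lay at 8.92, 8.71, 9.62 and 9.59 under the experimental label against 8.93, 9.01, 9.34 and 9.55 under the control label (difference 0.63). In these 3 genes no array numbered 1 or 2 reached the lowest array numbered 3 or 4, and the gap was narrowest in Rrp9, between experimental 2 and experimental 3. The members of the subcomplex that binds the precursor first, known in yeast as UtpA, were Heatr1 (0.30), Wdr43 (0.46), Wdr75 (0.39) and Utp15 (0.33). Heatr1, Wdr43 and Wdr75 did not overlap between the numbers. Utp15 was the only member below the median gene level and was spread widely at 5.19, 4.90, 5.20 and 4.84 under the experimental label against 4.30, 4.48, 5.06 and 5.10 under the control label. Bysl (yeast Enp1), with 0.43, and the large scaffold Utp20, with 0.41, were also without overlap, while the processome proteins Nop14 (0.42), Nol6 (0.17) and Wdr36 (0.29) overlapped. Wdr36, a subunit of the complex known in yeast as UtpB, differed by 0.53 within the arrays labelled experimental and by 0.05 within those labelled control.

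The Mpp10 complex, whose 3 proteins Mphosph10, Imp3 and Imp4 join the U3 snoRNP, showed the smallest differences of the processome, and the arrays of all 3 overlapped between the numbers. Imp3 had 12.46, 12.64, 12.46 and 12.41 under the experimental label against 12.60, 12.38, 12.51 and 12.50 under the control label (difference −0.05), and Imp4 differed by 0.15. Mphosph10, the scaffold of the complex, lay at 7.07, 7.46, 7.70 and 7.48 under the experimental label against 7.76, 8.12, 7.73 and 7.79 under the control label. Here the arrays labelled control were the higher ones, and control 2 was the highest of the 8. Rrp9, the protein of the same U3 particle, was apart by number where these 3 genes overlapped, although the difference between the genes was not tested.

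In the assembly of the large subunit 8 of the 15 members were higher in every array numbered 3 and 4, all 15 were higher in sign, and the median difference was 0.35. Gnl3 (nucleostemin), a nucleolar GTPase that is abundant in stem and progenitor cells, had 8.49, 8.41, 9.14 and 9.74 under the experimental label against 8.75, 8.76, 8.97 and 9.44 under the control label, the largest number difference of this group at 0.72. Experimental 4 was its highest array, and the number difference was 0.99 within the arrays labelled experimental and 0.45 within those labelled control. Rrs1, which in yeast helps to bring in the 5S ribonucleoprotein, had 8.97, 8.94, 9.65 and 9.61 under the experimental label against 9.10, 9.23, 9.59 and 9.75 under the control label. Nop2, a methyltransferase of the large subunit RNA, was at 11.17, 11.17, 11.59 and 11.73 under the experimental label against 10.93, 11.18, 11.59 and 11.77 under the control label. The groups of both genes were separate by number, with differences of 0.59 and 0.56. The PeBoW complex, needed to process the large subunit RNA, was not uniform, since Bop1 differed by 0.42 without overlap, Wdr12 by 0.35 with overlap and Pes1 by 0.13 with overlap. The array values of Pes1 were 11.44, 11.34, 11.54 and 11.39 under the experimental label against 11.47, 11.43, 11.60 and 11.66 under the control label, with numbers 1 and 2 reaching into the range of numbers 3 and 4. Mrto4 (0.45), a homolog of a ribosomal stalk protein, Noc2l (0.45), whose yeast counterpart Noc2 escorts the precursor, Ftsj3 (0.35), counterpart of the yeast methyltransferase Spb1, and Ebna1bp2 (0.22), whose yeast counterpart Ebp2 binds Rrs1, did not overlap. Rrp1b (0.32) and Wdr74 (0.27), whose yeast counterparts belong to an early module of the large subunit, and the assembly factors Nop16 (0.14), Nip7 (0.11) and Brix1 (0.08) did. Brix1, a large subunit assembly protein of the nucleolus, was nearly level at 10.61, 10.43, 10.71 and 10.63 under the experimental label against 10.71, 10.59, 10.67 and 10.64 under the control label.

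Of the 4 nucleolar scaffolds and chaperones 3 were apart by number on the brightest spots. The other spot of Ncl, at a mean of 7.41, overlapped between the numbers. Ncl (nucleolin), a major protein of the nucleolus that binds the ribosomal RNA precursor, had 13.20, 13.10, 13.41 and 13.52 under the experimental label against 13.05, 13.30, 13.40 and 13.41 under the control label, separate by number with a difference of 0.27. Nolc1, a chaperone of snoRNPs, was at 10.16, 9.93, 10.43 and 10.75 under the experimental label against 9.91, 10.09, 10.39 and 10.55 under the control label, and Ddx21, a nucleolar RNA helicase, at 8.01, 8.12, 8.65 and 8.70 under the experimental label against 8.19, 8.26, 8.56 and 8.88 under the control label. Both were separate by number as well, with differences of 0.51 and 0.55. Npm1 (nucleophosmin), a histone and ribosomal protein chaperone, overlapped and differed by 0.13 at a mean log2 signal of 14.83, close to the upper end of the scale, where differences are compressed. The dimmest spot of Npm1, at a mean of 11.38, overlapped as well, with a difference of 0.15.

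**Figure D3:**
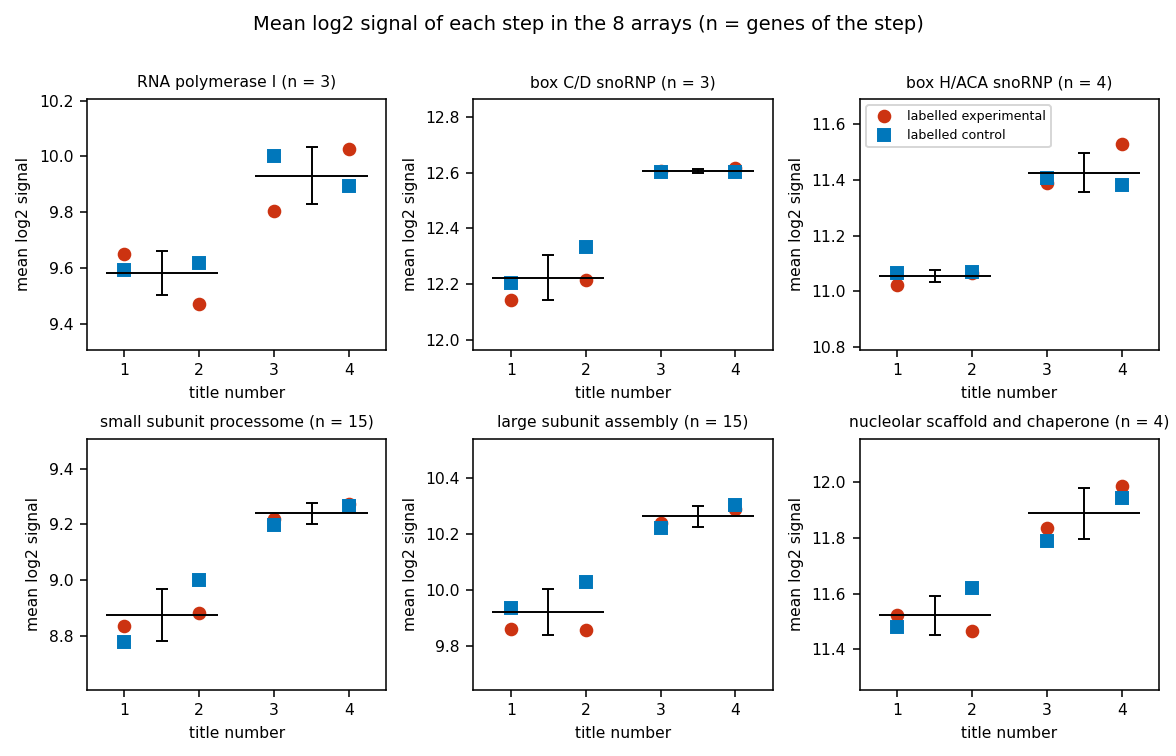
Mean log2 signal of the members of each step in the 8 arrays against the title number, with circles for arrays labelled experimental and squares for those labelled control. Each panel spans the same 0.9 log2 units, and each bar with whiskers is the mean ± SD of the 4 arrays numbered 1 and 2 or 3 and 4. In all 6 steps the arrays numbered 3 and 4 lie above those numbered 1 and 2, by 0.34 to 0.38.

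Averaged by step of the pathway, the number difference lay in a narrow range. It was 0.35 for RNA polymerase I, 0.38 for the box C/D and 0.37 for the box H/ACA snoRNPs, 0.36 for the small subunit processome, 0.34 for large subunit assembly and 0.37 for scaffolds and chaperones. In none of the 6 steps did the arrays numbered 1 and 2 overlap those numbered 3 and 4. The members themselves differed more than the steps, since 9 exceeded 0.5, 24 lay between 0.25 and 0.5, and 11 were at or below 0.25. Over all genes 4.24% exceeded 0.5.

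The members with several spots gave a check on single probes. A total of 27 members had 55 further spots, of which 49 were higher in numbers 3 and 4 in sign and 16 in every array, with a median difference of 0.27. All further spots of Heatr1, Rrp12, Ebna1bp2 and Ncl overlapped between the numbers, while the brightest spot of each did not. The spots of a gene share its RNA and are not replicates. Npm1 had the most, with 12 spots between 0.06 and 0.15. Gar1 gave 0.80 on its dimmer spot, and Rrp1b gave 0.58, 0.72 and 0.62 on its 3 further spots against 0.32 on the brightest. Of the 6 further spots lower in sign, 4 belonged to Polr1a, Polr1b, Heatr1 and Wdr12 at a mean log2 signal of 2.85 to 3.40, near the lowest value of the scale, where a difference cannot be read. The other two were the further spot of Polr1c and a spot of Wdr12 with a difference of 0.00.

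Because most members were higher together, the start sites of their genes were compared by sequence. RefSeq promoter windows of GRCm38.p6, from 250 bases before to 50 after the start, were found for 37 of the 44 members. A set of 5 motifs was searched on both strands, namely the E-box CACGTG to which Myc binds, the Ets-type motif CCGGAAG, its shifted form CGGAAGT, the longer CCGGAAGTG that contains both of these, and a longer palindrome around CGCG. The E-box CACGTG was in the windows of 6 of the 37 members (16.2%), against 8.09% of all 27025 genes with a window and 11.7% of those above the median level. CCGGAAG was found in 13 (35.1%), against 9.93% and 19.8%, CGGAAGT in 14 (37.8%), against 7.20% and 14.7%, and CCGGAAGTG in 7 (18.9%), against 2.25% and 4.83%. The palindrome was in none, against 0.525% of all genes. By single window, of which some genes have several, 7.15% of all 32851 held CACGTG and 8.86% CCGGAAG. Of the Ets-type motifs, CCGGAAG was in 8 of the 24 members with a window that were separate by number and in 5 of the other 13. The windows of the member with the largest number difference, a member with both motifs and both members of negative difference are printed as examples. They run 5′ to 3′ in the direction of the gene, with CACGTG and CCGGAAG (or its reverse complement) in capitals.
Rrp9 (chr9:106477059-106477358, plus strand): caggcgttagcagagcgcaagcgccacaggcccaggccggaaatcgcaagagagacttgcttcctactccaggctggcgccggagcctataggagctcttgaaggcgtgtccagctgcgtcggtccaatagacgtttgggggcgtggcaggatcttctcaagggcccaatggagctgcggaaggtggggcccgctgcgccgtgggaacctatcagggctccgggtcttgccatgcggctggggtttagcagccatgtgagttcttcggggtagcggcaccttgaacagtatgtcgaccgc
Tsr1 (chr11:74897830-74898129, plus strand): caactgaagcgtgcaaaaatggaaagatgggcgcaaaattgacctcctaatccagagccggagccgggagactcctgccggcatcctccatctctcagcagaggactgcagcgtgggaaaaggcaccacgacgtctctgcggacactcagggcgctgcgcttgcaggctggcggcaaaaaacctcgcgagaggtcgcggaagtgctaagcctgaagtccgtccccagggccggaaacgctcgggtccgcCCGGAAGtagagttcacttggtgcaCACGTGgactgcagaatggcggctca
Polr1c (chr17:46247996-46248295, minus strand): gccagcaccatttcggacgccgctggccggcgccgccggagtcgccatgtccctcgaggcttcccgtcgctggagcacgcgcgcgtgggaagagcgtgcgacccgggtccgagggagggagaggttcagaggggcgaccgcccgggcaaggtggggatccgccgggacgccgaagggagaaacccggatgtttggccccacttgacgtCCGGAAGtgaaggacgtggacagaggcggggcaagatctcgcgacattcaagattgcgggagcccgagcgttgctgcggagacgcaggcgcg
Imp3 (chr9:56937250-56937549, plus strand): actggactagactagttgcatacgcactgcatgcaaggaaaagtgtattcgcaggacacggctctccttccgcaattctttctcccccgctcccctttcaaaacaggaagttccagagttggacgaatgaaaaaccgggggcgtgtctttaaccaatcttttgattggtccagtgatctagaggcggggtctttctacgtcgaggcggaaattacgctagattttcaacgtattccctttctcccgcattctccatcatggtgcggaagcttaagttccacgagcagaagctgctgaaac
The window of Rrp9, the member with the largest difference (0.77), held neither motif, and that of Tsr1 (0.63) held both. Polr1c (−0.05) held CCGGAAG and Imp3 (−0.05) neither. These windows were picked as examples, so they cannot show whether the motifs go with the size of the number difference. A match is a run of letters and not a measured binding site.

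Several members also had annotated genes of small nucleolar RNAs within their bounds. In the RefSeq annotation, irrespective of strand, annotated small nucleolar RNA genes lay inside 7 of the 44 members, namely Nop56, Nop58, Dkc1, Wdr43, Tsr1, Gnl3 and Ncl. All 7 of them were higher in every array numbered 3 and 4 (median difference 0.46), as were 21 of the other 37 (median difference 0.34). The small nucleolar RNAs themselves were not analysed here.

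Between the labelled groups no member passed. As Etv5 itself differed by only 0.03 between the labels, this comparison says nothing firm about the soluble receptor. By limma with Benjamini-Hochberg adjustment over all genes, 0 of the 44 members and 0 of 24583 genes (0%) had an adjusted p under 0.05, with 19 members higher and 25 lower under the experimental label. At an unadjusted p under 0.05 the fit gave 1 member and 876 genes (3.56%), and a test of each gene without moderation gave 788 genes, of which 0 passed after adjustment. The median difference over the members was −0.02, and over all genes 0.00. For 42 of the 44 members the difference between the numbers was larger than that between the labels. The share of all genes for which this holds is not given here, so the count has no background. The spread by number lies inside each labelled group. The 95% confidence interval stayed within 0.5 on either side of 0 for 26 members, and for 41 members when the number was a block in the fit, which takes out the differences between numbers.

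**Figure D4:**
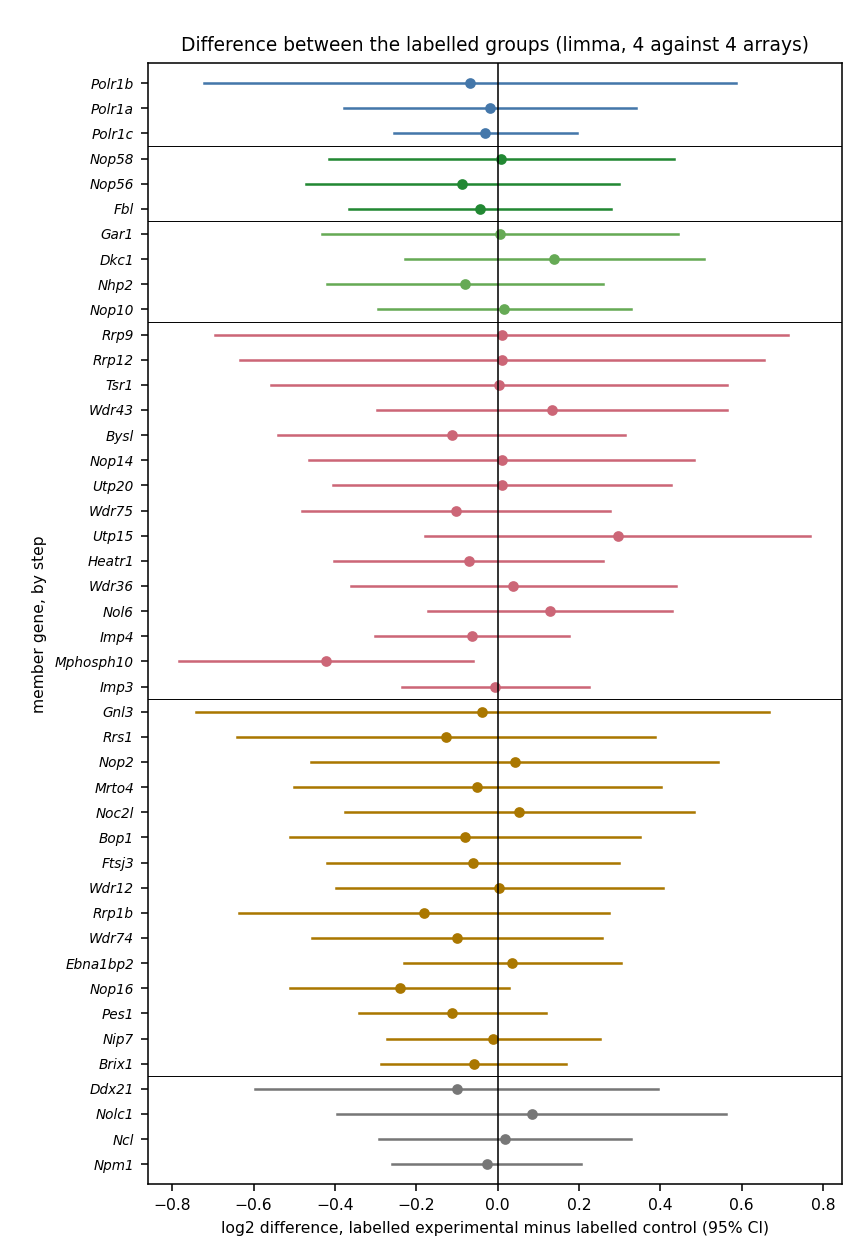
Difference between the arrays labelled experimental and control for each member (points, log2 units, limma, 4 against 4 arrays) with its 95% confidence interval (lines), grouped by step. The interval of Mphosph10, −0.78 to −0.06, is the only one that leaves out 0, and that member did not pass the adjustment over all genes.

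The member with the smallest p between the labels was Mphosph10, the scaffold of the Mpp10 complex described above, at −0.42 ± 0.16 (SE, interval −0.78 to −0.06, limma adjusted p = 0.9998). It was the only member whose labelled groups did not overlap on the brightest spot, a condition that 1.9% of all genes met in either direction. On the other spot of Mphosph10, at a mean of 6.67, the labelled groups overlapped, and experimental 3 (7.07) was above every array labelled control (6.61 to 7.03). Next came Nop16, a large subunit assembly factor, with 8.49, 8.59, 8.73 and 8.68 under the experimental label against 8.63, 8.97, 9.01 and 8.84 under the control label. Its difference was −0.24 ± 0.12 (interval −0.51 to 0.03), and its labelled groups overlapped. Utp15 (0.30 ± 0.21) and Pes1 (−0.11 ± 0.10) followed, with the array values given above. Within the numbers, Mphosph10 was lower in the array labelled experimental by 0.69, 0.66, 0.03 and 0.31 in numbers 1 to 4. Besides Mphosph10, the members Nop16, Pes1 and Bysl were lower within all 4 numbers, so 4 of 44, against 5.76% of all genes, and Dkc1 was higher within all 4, against 6% of all genes. These counts rest on the brightest spot of each gene, and the other spots of Mphosph10, Pes1 and Dkc1 did not repeat the pattern. For the mean of the members the difference within numbers 1 to 4 was −0.01, −0.13, 0.00 and 0.03. In number 2 the array labelled experimental was the lower one for 37 of the 44 members, in number 1 for 28, in number 3 for 20 and in number 4 for 17. Each of these counts rests on a single pair of arrays. The shares of all genes are not given here, so the counts have no background.

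Most genes of the same pathway that are not among the 44 shared the direction, with a smaller median size. Of 125 other measured genes of ribosome biogenesis, 104 were higher in numbers 3 and 4 in sign and 21 lower, with a median difference of 0.18. In every array numbered 3 and 4, 38 (30.4%) were higher and 3 lower, against 5.39% and 5.17% of all genes. Between the labels 0 of the 125 passed. The 12 further genes of RNA polymerase I had 7 higher and 5 lower in sign, with a median of 0.08. By step, 2 of 12 further genes of RNA polymerase I, 4 of 9 of the snoRNPs, 11 of 41 of the small subunit, 15 of 49 of the large subunit and 6 of 14 of the RNA exosome, which trims the precursor, were higher without overlap. The largest number differences were those of Urb2, a large subunit factor, at 0.61, the polymerase I subunit Polr1e at 0.60, Urb1 at 0.57 and the large subunit factor Nle1 at 0.56. Polr1e had 7.72, 7.88, 8.15 and 8.56 under the experimental label against 7.40, 7.85, 8.34 and 8.18 under the control label, and Nle1 had 7.22, 7.15, 7.84 and 7.70 under the experimental label against 7.17, 7.20, 7.72 and 7.73 under the control label. In both, each array numbered 3 and 4 was above each array numbered 1 and 2. The 3 genes that ran the other way were Nol10 (−0.45), Nop53 (−0.19) and Nsa2 (−0.16), of which Nol10 was dim at a mean of 5.20. Nop53, a late factor of the large subunit, lay at 13.34, 13.43, 13.23 and 13.16 under the experimental label against 13.24, 13.46, 13.23 and 13.12 under the control label.

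**Figure D5:**
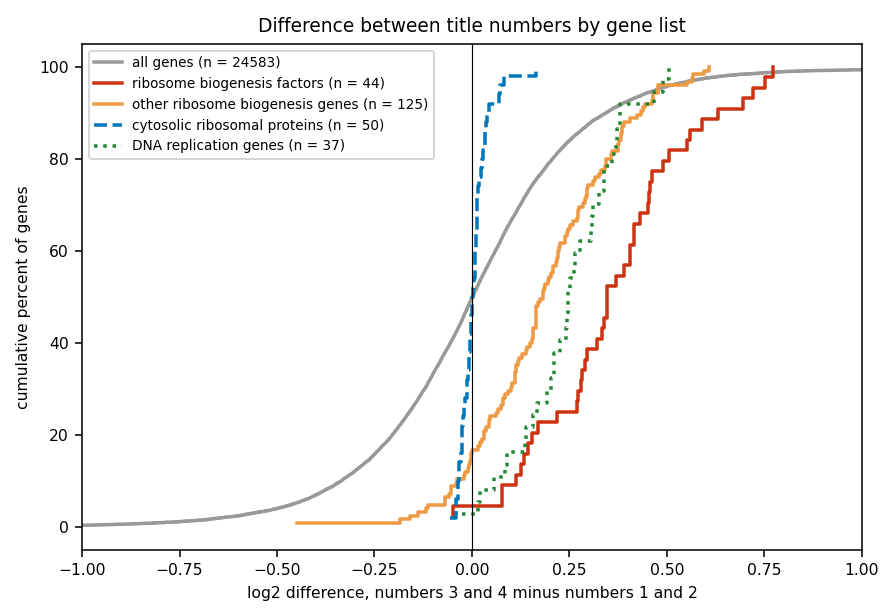
Cumulative percent of genes against the log2 difference between numbers 3 and 4 and numbers 1 and 2 (axis cut at 1 in either direction), for all genes, the 44 members, 125 other ribosome biogenesis genes, 50 cytosolic ribosomal proteins and 37 DNA replication genes. The curve of the members lies farthest to the right (median 0.35), and that of the ribosomal proteins is centred at 0.00.

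The ribosomal proteins, which these factors assemble, were level between the numbers. Of 50 cytosolic ribosomal proteins 0 were higher and 0 lower without overlap between the numbers, with a median difference of 0.00. Their mean log2 signal was 15.46 to 15.48 in the 8 arrays, just below the highest value of the scale, where differences are compressed. Myc had 8.37, 8.22, 8.96 and 9.07 under the experimental label against 8.34, 8.32, 8.69 and 8.86 under the control label, a number difference of 0.58 with no overlap. Mycn, the family member of the distal lung epithelium, had 9.80, 9.89, 10.18 and 10.14 under the experimental label against 9.35, 9.83, 10.16 and 10.17 under the control label, separate by number as well (0.45). The proliferation marker Mki67 had 13.73, 13.82, 13.75 and 13.93 under the experimental label against 13.64, 13.81, 13.67 and 13.80 under the control label, a number difference of 0.04 with overlap.

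Marker genes of cell types moved with the numbers too, and their part in the difference of the ribosome biogenesis factors was not tested. Over all genes 5.39% were higher and 5.17% lower in every array numbered 3 and 4. All 11 genes of the distal epithelium list, among them Sftpc and Sox9, were higher in every such array. Their list mean was 8.90 to 9.25 in numbers 1 and 2 and 10.97 to 11.15 in numbers 3 and 4. The list holds Etv5 and Etv4, which showed the split by number, so this count is not independent of that split. Of 16 general epithelial genes 5 were higher in every such array. Their list mean was 9.91 to 10.16 in numbers 1 and 2 and 10.19 to 10.31 in numbers 3 and 4. Smooth muscle genes ran the other way, with 6 of 10 lower in every array numbered 3 and 4 (10.05 to 10.32 in numbers 1 and 2 and 9.75 to 9.89 in numbers 3 and 4), as did 6 of 16 mesenchymal genes (11.50 to 11.73 in numbers 1 and 2 and 11.39 to 11.43 in numbers 3 and 4, with 1 other gene higher), 3 of 15 endothelial genes (10.29 to 10.38 in numbers 1 and 2 and 10.14 to 10.27 in numbers 3 and 4) and 2 of 14 leukocyte genes (8.67 to 8.93 in numbers 1 and 2 and 8.57 to 8.70 in numbers 3 and 4). Of 13 airway and squamous genes 0 were higher or lower in every such array. Erythroid genes had 0 of 10 in either direction, and mesothelial genes 0 of 7. Cardiac muscle genes had 1 of 15 and neuronal genes 1 of 8 in each direction. No marker lies at 0 on this log2 scale, but Pln of cardiac muscle, at a mean of 2.68, and Epb42 of red cells, at 3.23, were near its lowest value. In RNA of a whole lobe, fewer cells of a type and less RNA per cell cannot be told apart.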

How the data were processed

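RNA of the left lung lobe was labelled with Cy3 and hybridized to single-colour Agilent mouse arrays, 8 in all. Per the study's methods, the authors extracted spot signals with Mapix 6.5.0, corrected the background with normexp on negative control spots (offset 1) and quantile-normalized the logged signals with limma 3.30.13 in R 3.3.2. The deposited log2 values are these normalized signals of 62976 spots per array, and base 2 was read from their range. Detection per spot could not be called. Quantile normalization gives all arrays 1 distribution, so only changes relative to the other genes can be seen.

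Spots were named through the platform annotation and RefSeq accessions (GRCm38.p6), which gave 24583 genes, each represented by its spot of highest mean. A total of 2 spots with a missing value were left out. Labels were compared with limma 3.58.1 (lmFit and eBayes, unpaired, two-sided, R 4.3.3), with Benjamini-Hochberg adjustment over all genes and a threshold of 0.05. Number differences are means over arrays with no test. "Without overlap" means that every array of a group lay above every array of the other. The fit was tested on simulated data.

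The 44 members and all comparison lists were chosen with earlier results of these arrays known. All members are named, and array values are given for up to 3 members of each step with the largest number difference, for the 4 with the smallest p between labels, for the 3 with the smallest number difference, and for a panel of genes given whatever their values, of which Ddx3y was not measured here and is left out. Same-numbered arrays of the 2 labels deviated together (correlations across genes of 0.109, 0.146, 0.124 and 0.117 in numbers 1 to 4, each past the limit of 0.1), so the number was used as a block in an alternative fit. Arrays of different numbers within the pair 1 and 2 correlated at 0.0647 and 0.1015 and within the pair 3 and 4 at 0.0869 and 0.0890, so the correlations do not set a number apart from the split into 1 and 2 against 3 and 4. What a number stands for, such as a litter or a day, is not given in the sources used here. A p-value here reflects the spread over these arrays alone. Other alternatives were a test without moderation, array weights, the mean of all spots, bright genes only, leaving out arrays, each label alone and scaling to the ribosomal proteins.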

Additional observations from a re-analysis of the deposited data

Results flagged for a closer look

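In 3 members a single array lay far from the other 3 arrays of its labelled group, with a gap to the nearest of them, as a share of the whole range of the group, of 0.834 to 0.878, above Dixon's 95% critical value. Mphosph10 was at 8.12 in control 2, where the other control arrays had 7.73 to 7.79. Nop14 was at 6.59 in control 1 against 7.15 to 7.24 in the others, and Rrp1b at 6.91 in control 1 against 7.48 to 7.56. The criterion was applied to 102 sets of 4 values, and chance alone marks about 1 in 20.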

How the results depend on the processing

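The count of members higher in every array numbered 3 and 4 was 27 with the mean of all spots (4.62% of all genes). With genes above the median level only it was 28 (8.88% of those genes). It was 28 to 33 without 1 array (33 without control 2) and 29 to 34 without both arrays of a number. No member was lower in every such array, except 1 in the arrays labelled experimental alone (Imp3) and 1 without both arrays numbered 2 (Polr1c). With fewer arrays either condition is easier to meet for any gene, so the share of all genes cannot fall either. The higher counts are therefore not read as a stronger result. The median number difference was 0.34 to 0.38 without 1 array, 0.41 in the arrays labelled experimental alone, 0.32 in those labelled control alone and 0.42 without both arrays numbered 2. Averaging all spots lowered Polr1b to 0.34 through its dim spot described above, and Polr1a to 0.08. Besides its dim spot, Polr1a had a further spot at a mean of 7.16 with a difference of 0.15. The average was 0.64 for Gar1 and 0.21 for Brix1. Within a label, Tsr1 was 0.79 in experimental and 0.47 in control, and Utp15 −0.02 and 0.69. Fbl was 0.17 without number 1 and 0.39 without number 2. The other 374 repeated values of the 24 members with array values moved by less than 1 SD.

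Between the labels 0 members and 0 genes passed in every alternative, the replicate block included (members' median −0.02, with 1182 genes at an unadjusted p under 0.05). The members' median was −0.11 to 0.04 without 1 array, and 61 of 311 repeated values of single members changed sign, with no adjusted p below 0.999. Scaling the arrays to equal ribosomal protein means shifted the median of all genes by only −0.01. Those signals lie near the top of the scale, and this gives no check of it. The number of arrays limits precision, and signals near the lowest or highest value of the scale are compressed.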

Other observations

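Genes of the cell cycle were set beside the ribosome biogenesis factors, since both belong to growing tissue. Of 37 DNA replication genes, 20 were higher and 0 lower in every array numbered 3 and 4, against 5.39% and 5.17% of all genes. Their median number difference was 0.25. Of 27 genes of mitosis 0 were higher and 2 lower, with a median of 0.04. The difference between these lists was not tested. Between the labels 0 genes of either list passed by limma after Benjamini-Hochberg adjustment over all genes.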
